A study of Mus musculus with 3 samples.

Results

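Processed pseudogenes are copies of messenger RNAs that were reverse transcribed and inserted elsewhere in the genome, usually without introns and without the promoter of the gene they came from, which is called the parent here. Genes with abundant messages in the germ line, among them ribosomal protein genes, have left many such copies. A young copy still has nearly the sequence of its parent, so a short read from the parent's message can also be placed on the copy, and the number of reads credited to a copy is then an estimate by the program that divides them. The files described here are in the formats of RSEM, which starts from alignments, and kallisto, which matches reads to transcripts by the short words they share.

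The genes described here were selected from the annotation and from these libraries. A gene was included where all its transcripts are annotated as processed pseudogenes and its level in the RSEM-format gene table was at least 1 TPM (a transcript level corrected for length and scaled to the same sum in each library) in each of the 3 libraries. Of 55536 genes in the tables, 9940 had only processed pseudogene transcripts, and 247 of these met the rule. The gene-table TPM thus chose the members, and every comparison of that table with the kallisto-format table is given as a description, without a test.

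The libraries were made from polyadenylated RNA of primary macrophages grown from bone marrow of C57BL/6J mice, a wild-type laboratory strain. All 3 carry the label of 100 ng/ml lipid A, a bacterial agonist of the receptor TLR4, at 0 min, so there was 1 group (n = 3 biological replicates by their labels) and no contrast between conditions. Age and sex were not collected, the labels name the same donor entry for all 3, and nothing says that the cultures came from separate animals. All 10 macrophage markers examined, among them Adgre1, Csf1r and Cd68, reached 1 TPM in each of the libraries and summed to 20581 to 38989 TPM. In such bulk RNA, fewer cells of a type and less RNA per cell cannot be told apart. The 4 T cell markers summed to at most 0.31 TPM and the 3 B cell markers to at most 0.41 TPM. The 3 stromal markers summed to at most 0.47 TPM. Of the 5 neutrophil markers S100a8 and S100a9 were at 1 TPM or more in all 3 libraries and Ly6g was at 0, with sums of 32.6 to 268 TPM. Of the 3 endothelial markers Kdr was at 1 TPM or more in all 3, with sums of 5.81 to 12.6 TPM. The part of these cells in the results below was not tested.

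Expected counts in the gene tables totalled 27946070, 29779410 and 53447437 for replicates 1, 2 and 3, and the kallisto-format tables held 37414360, 38947769 and 56961574 estimated counts. The tables of replicate 3 stood apart in their scaling. The median log2 ratio of gene-table to kallisto-format TPM over 9866 protein-coding genes at 1 TPM or more (genes with at least 1 protein-coding transcript) was 0.40 in replicate 1, 0.39 in replicate 2 and 0.06 in replicate 3, so ratios of the pseudogenes are also given relative to these medians. A pseudocount of 0.1 TPM was added to both values for each log2 ratio.

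The sequences below show how close the copies are to their parents, and each belongs to a result described later. Coordinates are those of mm10 with GENCODE M21, and member sequences are the transcript strand, 5′ to 3′. Gm10443 (chr6:86334031-86334240, + strand, 210 bases, 1 exon) is shown whole because its level differed most between the tables. It equals the coding sequence of Rps28, a protein of the small ribosomal subunit, at every base, so no capitals appear.

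Gm10443: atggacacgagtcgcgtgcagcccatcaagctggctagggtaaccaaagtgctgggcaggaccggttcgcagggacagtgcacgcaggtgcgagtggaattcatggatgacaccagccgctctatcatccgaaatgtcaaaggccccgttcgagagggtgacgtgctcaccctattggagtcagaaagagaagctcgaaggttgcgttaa

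Mpc1-ps (chr12:110858565-110858894, - strand, 330 bases) differs from Mpc1, a subunit of the mitochondrial pyruvate carrier, by 1 base. The first 90 bases of the copy (chr12:110858805-110858894) hold it, in capitals. Counted from the first base shown, with the parent's base first, the difference is G41A.

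Mpc1-ps: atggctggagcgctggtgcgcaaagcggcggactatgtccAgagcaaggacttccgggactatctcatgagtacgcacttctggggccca
Mpc1: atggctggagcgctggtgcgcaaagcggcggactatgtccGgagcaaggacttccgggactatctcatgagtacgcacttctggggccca

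Gm12715 (chr4:103563402-103564529, + strand, 1128 bases) differs from Actg1, cytoplasmic gamma actin, by 4 bases, all in the stretch shown (chr4:103564254-103564403). They are T6C, G9T, T12C and G150A.

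Gm12715: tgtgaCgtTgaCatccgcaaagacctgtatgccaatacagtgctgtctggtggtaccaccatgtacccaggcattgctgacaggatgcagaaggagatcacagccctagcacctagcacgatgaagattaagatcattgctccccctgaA
Actg1: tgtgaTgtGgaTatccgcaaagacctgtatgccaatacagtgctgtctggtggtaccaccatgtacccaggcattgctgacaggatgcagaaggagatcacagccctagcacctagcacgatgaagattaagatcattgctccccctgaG

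Rpl35a-ps2 (chr1:181241988-181242320, - strand, 333 bases) stands for 5 members of exactly the same sequence on 5 chromosomes, each 1 base away from Rpl35a, a protein of the large ribosomal subunit. That base is G61A in the 120 bases shown (chr1:181242106-181242225).

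Rpl35a-ps2: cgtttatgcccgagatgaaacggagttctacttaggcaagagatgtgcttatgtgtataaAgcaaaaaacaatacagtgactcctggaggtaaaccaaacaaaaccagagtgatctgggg
Rpl35a: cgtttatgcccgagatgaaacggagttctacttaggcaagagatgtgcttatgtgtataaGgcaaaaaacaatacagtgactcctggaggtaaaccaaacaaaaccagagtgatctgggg

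Ndufb4c (chr15:73809507-73809896, - strand, 390 bases) is identical over its whole length to Ndufb4, a subunit of respiratory complex I. Its first 90 bases are shown (chr15:73809807-73809896) because it was the copy that stood above its parent in both tables by the widest margin among identical pairs.

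Ndufb4c: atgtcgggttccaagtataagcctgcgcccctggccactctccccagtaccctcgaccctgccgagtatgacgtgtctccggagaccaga

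Gm12250 (chr11:58187739-58189012, + strand, 1274 bases) had no parent and is shown as the contrast. It is known as the interferon-inducible GTPase Irgb10, and its longest open frame holds 417 codons. The 120 bases shown (chr11:58187759-58187878) begin at that frame's start codon, in capitals.

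Gm12250: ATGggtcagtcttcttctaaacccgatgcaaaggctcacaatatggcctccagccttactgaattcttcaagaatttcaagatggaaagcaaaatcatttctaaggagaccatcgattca

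The members were short, unspliced and close to their parents. Their length ranged from 192 to 3593 bases with a median of 523, against 526 for the 9693 other processed pseudogenes, and 239 of 247 had 1 exon. An alignment to protein-coding transcripts at 80% identity or more over at least 50% of the length gave a parent to 241 members, or 97.6%, and to 75.7% of the other processed pseudogenes. The median identity was 99.6% for members and 91.2% for the others. Over their whole length 53 members were identical to the parent, and 93 more differed by 1 to 5 bases. An open frame from the first base to a stop codon at the last was intact in 91 members (36.8%) and in 461 of the others (4.76%). Because the rule kept copies to which reads were credited, these features describe the selection as well as the genes.

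Words of 31 bases were counted to see how much of each member can be told from every other gene. The median member had 7.08% of its words to itself, against 85.7% in the other processed pseudogenes and 98.1% in the protein-coding genes. No private word at all was found in 70 members (28.3%), in 4.06% of the other processed pseudogenes and in 17 protein-coding genes (0.172%). RefSeq listed 212 members by symbol. It types 183 as pseudogenes, 21 as transcribed pseudogenes and 8 as protein coding, namely Ndufb4c, Gm12250, Rpl34-ps1, Tma7-ps, H3f3c, AA414768, Gm10509 and Gm36298.

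The members lay on 20 chromosomes, with 16 members on X. Other genes here leave out all processed pseudogenes, and outside every other gene lay 159 members. Inside the span of another gene were 40 on the same strand and 53 on the opposite strand, and exons of another gene were overlapped by 8 and 14. The spans held 16.2% and 21.5% of members and 11.0% and 18.5% of the other processed pseudogenes, and the exons 3.24% and 5.67% against 0.887% and 2.29%. The median log2 ratio of gene-table to kallisto-format TPM, was 3.10 for members outside every other gene and 1.67 for those inside one. The strand setting of the counting is not given in the sources used here, so reads of members under another gene's exons cannot be told from reads of that gene.

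Together the members made up about the same share of summed TPM in both tables, but not of counts. Their TPM summed to 9849, 9790 and 9283 in the gene tables of replicates 1, 2 and 3, which is 0.964% ± 0.0311 of the library (SD, n = 3), and to 9608, 9925 and 9988 in the kallisto-format tables, 0.984% ± 0.0203. The members took 0.157% of the expected counts in replicate 1, with a Wilson interval at 95% of 0.156% to 0.159%. Replicate 2 gave 0.148%, with an interval of 0.147% to 0.150%, and replicate 3 gave 0.190%, with an interval of 0.189% to 0.191%. Of the estimated counts in the kallisto-format tables they took more, 0.207%, 0.208% and 0.264% in replicates 1, 2 and 3. These intervals cover counting error only, and reads are not independent molecules. The 10 most abundant members held 51.5% of the members' mean TPM and the 17 above 100 TPM held 63.3%.

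Single members differed between the tables. The gene table was over 2-fold higher than the kallisto-format table in all 3 libraries for 136 of 247 members (55.1%) and over 2-fold lower for 9 (3.64%). Among all 10543 genes at 1 TPM or more these calls came to 2.03% and 0.417%, and among protein-coding genes to 0.334% and 0.162%. The members were 2.34% of the genes compared and 63.6% of the 214 genes called higher, so most genes with the higher gene-table value were processed pseudogenes chosen on that value. Their median log2 ratio was 2.86 (2.91, 2.69 and 2.24 in replicates 1, 2 and 3), with quartiles at 0.30 and 4.27. The protein-coding genes had a median of 0.28 with quartiles at 0.18 and 0.34. Relative to the protein-coding median of each library the members' median was 2.57. Without replicate 3, 350 genes met the rule, of which 221 were higher and 20 lower, and the median ratio was 3.02.

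**Figure D1:**
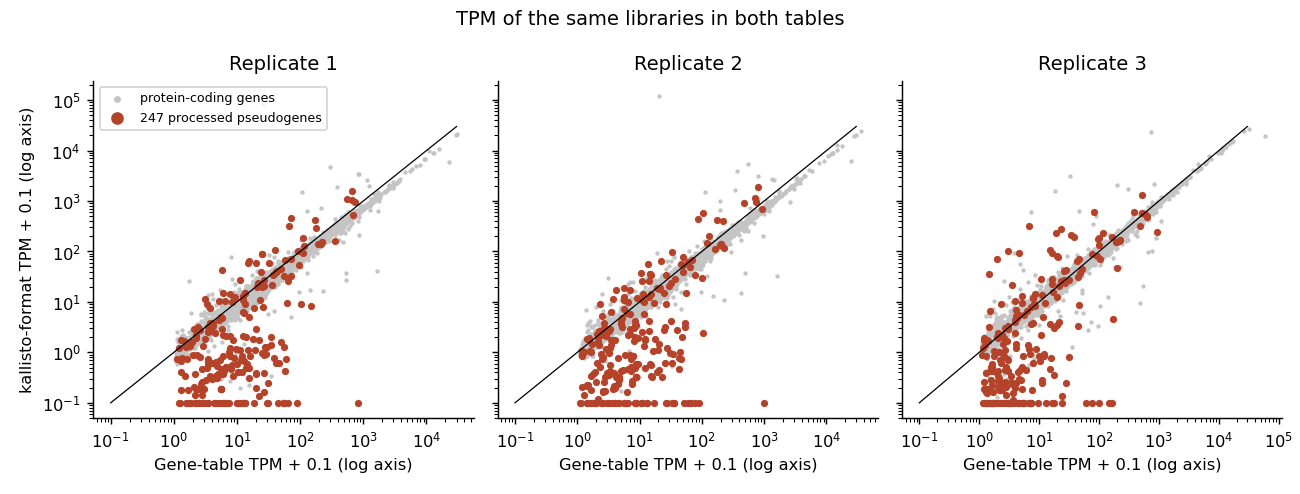
TPM of each gene in the gene table (x axis) and the kallisto-format table (y axis), with 0.1 added and both axes logarithmic, for the 247 members (red) and protein-coding genes (grey) in each library. The line marks equal values, and the members spread below it to the floor of the y axis, where a gene is listed at 0.

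The ratios were not gathered around 1 value. As many as 100 members were below 1 TPM in every kallisto-format table and 19 of these were listed at 0 in all 3, while 87 were at 1 TPM or more in all 3. Across the members, Pearson's r between the log2 levels of both tables was 0.58, 0.57 and 0.66 in replicates 1, 2 and 3, and across protein-coding genes it was 0.99 in each. These r are over genes of 1 library, which are not independent replicates, and share that library's reads.

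Choosing by the other table turned the direction around. Of the 9940 processed pseudogenes, 146 were at 1 TPM or more in every kallisto-format table. They included 87 members, which is 59.6% of the kallisto-format choice and 35.2% of the members. Of these 146, the kallisto-format value was over 2-fold higher in all libraries for 51 and the gene-table value for 7, and the median log2 ratio was -0.95. For the 87 genes in both choices the median was -0.03, with 7 higher in the gene table and 9 higher in the kallisto-format table.

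Of the 10 most abundant members, 6 were copies of ribosomal protein genes. Rpl31-ps8, a copy of the large-subunit protein gene Rpl31, led with 698, 913 and 637 TPM in the gene tables (749 ± 145, SD, n = 3) and 538, 701 and 488 in the kallisto-format tables. Both tables placed it above Rpl31 itself, at 493 TPM in the gene table and 362 in the kallisto-format table. Its log2 ratio was 0.38 ± 0.00431, beside the protein-coding median of 0.28.

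Tpt1-ps3, identical to Tpt1, which encodes the translationally controlled tumour protein, was at 662, 781 and 525 TPM in the gene tables and 1562, 1919 and 1293 in the kallisto-format tables. All 3 libraries thus gave it a higher value in the kallisto-format table, with a log2 ratio of -1.28 ± 0.0333. Tpt1 differed the opposite way, with 3177 TPM in the gene table and 2098 in the kallisto-format table, and Tpt1 plus its 10 processed pseudogenes came to 3833 and 3691 TPM.

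Gm10443 was at 812, 1007 and 147 TPM in the gene tables, from 303, 396 and 106 expected counts, and had 0 estimated counts in each kallisto-format table. Its effective length, by which counts are divided for TPM, was only 20.2, 20.0 and 18.3 bases in the gene tables. In the kallisto-format tables it was 52.4, 52.0 and 49.7 bases. Its gene-table TPM is thus high for its counts. A count of 0 allows up to 3 counts by sampling of reads alone. Gm10443 had 0 private words of 180, so that limit does not cover how reads shared with Rps28 were divided. The credibility intervals deposited with the gene tables ran from 646 to 874, 816 to 1069 and 100.4 to 192 TPM. Rpl27-ps3, also without a private word, had a lower bound of 9.36e-05 TPM in replicate 2. A bound above 0 thus cannot decide between the tables. Rps28 was at 1353 ± 763 TPM in the gene table and 982 ± 466 in the kallisto-format table (SD, n = 3).

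Rps23-ps1 and Gm7536 were copies of Rps23 and Rpl27a, proteins of the small and large ribosomal subunits. Rps23-ps1 was at 750, 751 and 383 TPM in the gene tables and 939, 965 and 596 in the kallisto-format tables. Gm7536 was at 651, 715 and 518 TPM and at 1058, 1136 and 573. Both were above their parents, Rps23 at 446 and Rpl27a at 325 TPM, in every library of both tables.

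Replicate 3 stood apart for the remaining members of the 10. Gm12338, a copy of the cytochrome oxidase subunit gene Cox7c, was at 351, 227 and 920 TPM in the gene tables and 158, 117 and 243 in the kallisto-format tables. Its counts went the other way, with 88.6, 60.7 and 417 expected counts and 230, 183 and 424 estimated counts. The effective length, by which counts are divided for TPM, was 13.7, 13.6 and 11.6 bases in the gene tables for this transcript of 192 bases. In the kallisto-format tables it was 44.2, 44.7 and 40.2 bases. Gm10123, a copy of the cyclophilin gene Ppia, was low in replicate 3 of the gene tables, at 545, 473 and 82.9 TPM, and at 1086, 908 and 617 in the kallisto-format tables. Rpl36a-ps2, identical to the ribosomal gene Rpl36a, was at 192, 199 and 487 TPM and at 140, 134 and 320. The last pair, Rps6-ps4 and Gm12715, were higher in replicate 3 than in the others. Rps6-ps4, identical to the ribosomal gene Rps6, was at 89.6, 77.3 and 583 TPM in the gene tables and at 0.00055, 0 and 546 in the kallisto-format tables. Gm12715 was at 60.0, 42.3 and 626 TPM and at 0.645, 0.681 and 495. In replicate 3 the tables thus gave levels of the same order, while in replicates 1 and 2 the kallisto-format tables listed both copies below 1 TPM.

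**Figure D2:**
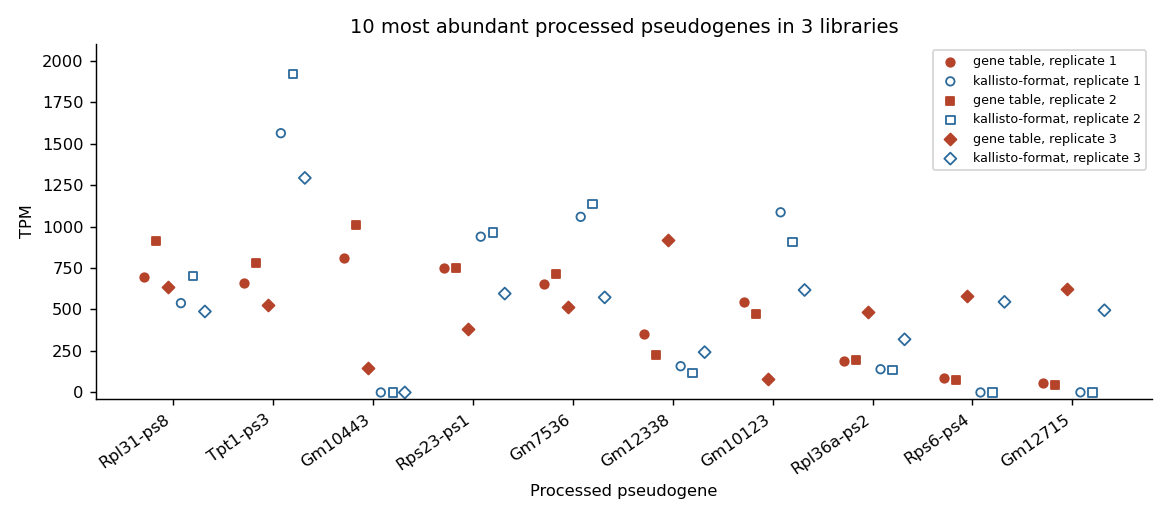
TPM of the 10 members of highest mean gene-table TPM (x axis) in each library, on a linear axis, with filled red symbols for the gene tables and open blue symbols for the kallisto-format tables. Gm10443 has open symbols at 0 in all 3 libraries, and Rps6-ps4 and Gm12715 have them near 0 in replicates 1 and 2.

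Grouped by their difference from the parent, members identical to it and members with a few differences had different ratios. Of the 53 identical members 11 were over 2-fold higher in the gene table, 5 lower and 37 neither, with a median log2 ratio of 0.54. Of the 93 members with 1 to 5 differences 70 were higher and 2 lower, with a median of 3.87. Of the 95 with more differences or aligned over part of their length 55 were higher and 2 lower, with a median of 2.65. None of the 6 members without a parent was called either way, and their median was -0.09. The groups were formed from sequence and not from levels, but all members had passed the gene-table threshold.

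Levels differed between these groups too. The identical members held 69.7% of the members' summed mean TPM, with 6716 TPM in the gene tables and 7659 in the kallisto-format tables. Those with 1 to 5 differences summed to 2054 and 1439 TPM, and a typical one had a median of 9.62 TPM in the gene table and 0.475 TPM in the kallisto-format table. Along the share of private words the median log2 ratio was 0.99 for the 70 members with none, 1.89 for the 39 with up to 5%, 3.67 for the 89 with over 5% to 25%, 2.88 for the 38 with over 25% to 75% and -0.28 for the 11 above 75%. Of those 11, none was called higher and 2 were called lower.

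**Figure D3:**
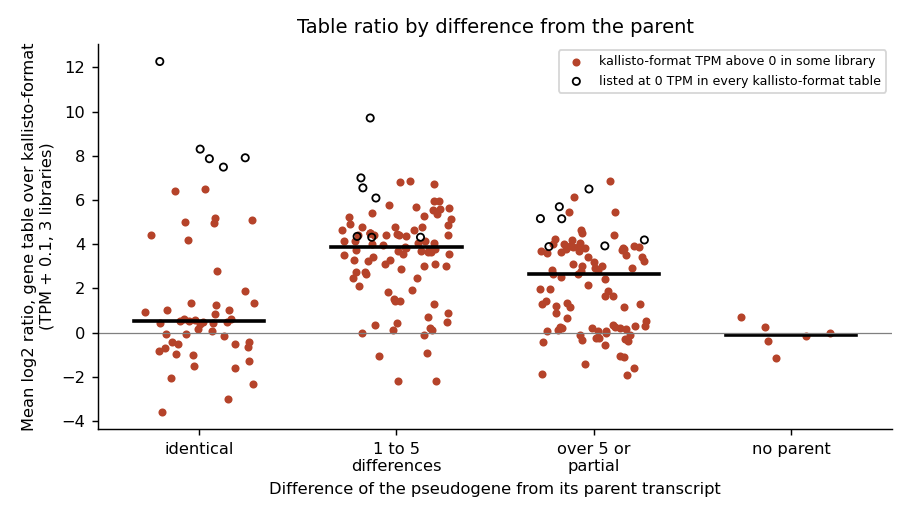
Mean log2 ratio of gene-table to kallisto-format TPM over 3 libraries (y axis, 0.1 TPM added) for each member, grouped by its difference from the parent transcript (x axis, points spread sideways for legibility). Bars mark the medians of 0.54, 3.87, 2.65 and -0.09, and open circles are the 19 members listed at 0 in every kallisto-format table.

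The 5 members with the highest ratios were all listed at 0 by the kallisto-format tables. After Gm10443 came Mpc1-ps, at 53.8, 66.2 and 165 TPM in the gene tables, from 91.8, 120 and 633 expected counts. Its parent Mpc1 was at 275 ± 64.7 TPM in the gene table and 230 ± 74.5 in the kallisto-format table. Mpc1-ps had 31 private words of 300, those that span the base shown in capitals above. Gm10698, identical to the cargo receptor gene Tmed2, was at 30.5, 17.1 and 59.9 TPM in the gene tables. Rpl38-ps2 and Gm12918, identical to the ribosomal genes Rpl38 and Rpl13, were at 65.0, 63.7 and 3.27 TPM and at 55.5, 51.5 and 4.37 TPM, so replicate 3 was low in both. Rpl38-ps2 held only 25.65, 26.56 and 2.51 expected counts, over effective lengths of 21.4, 21.2 and 19.6 bases.

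Snrpert, a copy of Snrpe, which encodes a core protein of the splicing particles, had 0 kallisto-format counts although RSEM gave its counts no posterior spread. It held 19, 9 and 12 expected counts in replicates 1, 2 and 3, with a posterior SD of 0 counts in each, and 0 estimated counts in each kallisto-format table. Of its 249 words 71 were private. In TPM it was at 18.3, 8.22 and 5.29 in the gene tables, against 104 for Snrpe. A posterior SD of 0 in every library was found for 16 members, with a median log2 ratio of -0.06, of which 2 were called higher and 2 lower. The other member called higher among them was Gm16089, a copy of the complex III gene Uqcrb, with 2, 2 and 9 expected counts and no estimated counts.

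The lowest ratios belonged to members with the higher kallisto-format value. Rpl28-ps1, identical to the ribosomal gene Rpl28, was at 72.4, 103 and 6.60 TPM in the gene tables and 455, 583 and 325 in the kallisto-format tables. Gm13835, identical to the proteasome gene Psma3, was at 15.4, 10.5 and 2.88 TPM and at 65.4, 37.3 and 104. Pdcd5-ps, identical to Pdcd5, was at 5.93, 5.50 and 1.33 TPM and at 14.9, 10.8 and 36.4. Gm4332 and Eif4a-ps4 were 1 base away from the ribosomal gene Rps20 and from Eif4a1, an RNA helicase of translation initiation. Gm4332 was at 66.1, 85.5 and 2.23 TPM and at 327, 442 and 8.83, and Eif4a-ps4 at 40.6, 21.7 and 19.1 TPM and at 109, 63.2 and 233. Of these 5 members, Pdcd5-ps was not called lower, because in replicate 2 the values differed by less than 2-fold.

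Most parents had close values in both tables, alone or summed with their copies. The 241 members had 201 parents, 198 of them at 1 TPM or more in every gene table, and 29 parents had more than 1 member. The median log2 ratio was 0.34 for the parents alone and 0.34 for each parent plus all processed pseudogenes assigned to it (0.44, 0.45 and 0.13 in replicates 1, 2 and 3), with quartiles of 0.19 and 0.43 for the sums. Of 201 parents alone 5 were over 2-fold higher in the gene table in all libraries and 1 was lower. Of the 201 sums 196 were not called, 5 were higher and none was lower. Mrpl23, a mitochondrial ribosomal protein gene, was called higher alone, at 38.4, 36.6 and 21.8 TPM in the gene tables and 6.42, 9.03 and 5.22 in the kallisto-format tables. Summed with its copy Mrpl23-ps1 it came to 75.3 and 62.1 TPM and was not called. In the gene table a member stood at a median of 4.12% of its parent's TPM, and in the kallisto-format table at 0.457%.

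**Figure D4:**
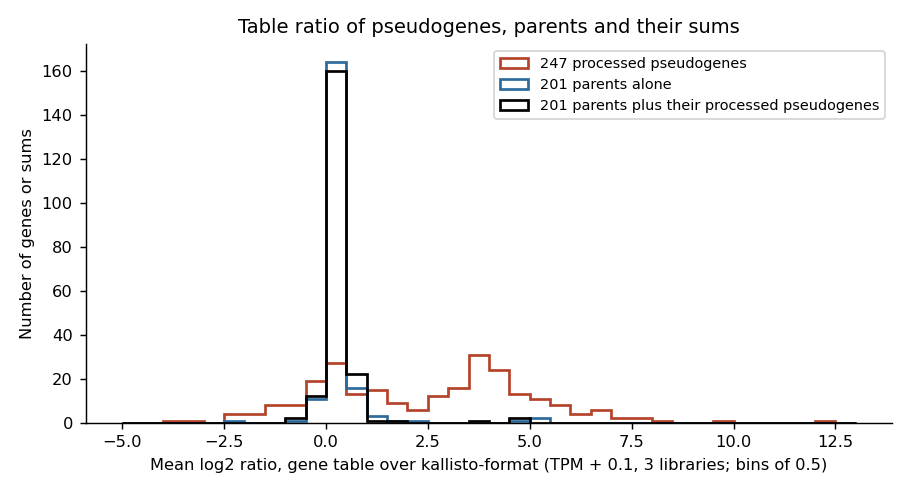
Number of genes or sums (y axis) by mean log2 ratio of gene-table to kallisto-format TPM (x axis, 0.1 TPM added, bins of 0.5) for the 247 members, their 201 parents alone and each parent plus its processed pseudogenes. Most parents and sums fall in 1 peak, with a median of 0.34 over all of them. A few lie apart, among them Rps12 at 5.22 alone and 4.69 as a sum. The members spread from below -3 to above 12 with a second mass of values near 4.

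The 5 sums called higher are named after their values were seen. They were those of Rps12, Rpl12, Hnrnpa3, Eno1b and Cdh11. Cdh11 alone was not called, at 0.07 TPM in the gene table and 0.048 in the kallisto-format table, and its sum of 14.9 and 5.54 TPM was nearly all its copy, Gm10557. Rps12, a small-subunit ribosomal gene, was at 1640, 1609 and 532 TPM in the gene tables and 40.8, 31.9 and 20.5 in the kallisto-format tables. Rps12-ps3, which the annotation types as protein coding and which is therefore no member, was at 106, 113 and 7.10 TPM and at 1543, 1518 and 616. The larger value was that of Rps12 in the gene tables and that of Rps12-ps3 in the kallisto-format tables. Rpl12 with its copies came to 510 TPM in the gene table and 47.0 in the kallisto-format table, and Hnrnpa3 with its copies to 560 and 158.

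In 10 members the gene tables placed the copy above its parent in every library, and in 9 of them the kallisto-format tables did too. Ndufb4c was at 217, 165 and 216 TPM in the gene tables and 140, 111 and 162 in the kallisto-format tables, while Ndufb4 was at 23.6, 19.8 and 13.1 TPM and at 16.2, 14.1 and 12.1. The values of copy and parent did not overlap in either table. Llph-ps2, 1 base away from Llph, was at 112, 64.9 and 196 TPM and at 91.3, 49.0 and 152, with Llph at 37.1 ± 8.41 and 38.9 ± 11.4 TPM (SD, n = 3). Bambi-ps1, a copy at 88.9% identity of the BMP decoy receptor gene Bambi, was at 8.11, 6.38 and 3.98 TPM and at 9.83, 9.68 and 6.78. Nearly all its words are private (545 of 562), and Bambi was at 1.72, 1.56 and 0.46 TPM in the gene tables.

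Grouped by the parent's role, copies of cytosolic ribosomal protein genes were the largest set, with 68 members and 54.4% of the members' TPM. Of these, 46 were over 2-fold higher in the gene table and 4 lower, with a median log2 ratio of 3.72. Among the 13 copies of translation factors 9 were higher and 2 lower. Tpt1-ps3 was the most abundant of them. Among the 17 copies of chaperone, cyclophilin, ubiquitin and proteasome genes 9 were higher and 2 lower, and Gm10123 led. Of the 14 copies of mitochondrial energy genes 8 were higher and none lower, and Gm12338 led.

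The smaller sets held members of moderate level. A list of RNA-binding and splicing genes, which also holds SUMO genes, matched the parents of 14 members, of which 9 were higher and none lower. The most abundant was Gm10241, identical to Sumo2, a protein modifier gene and no RNA-binding or splicing gene, at 12.4, 11.0 and 99.4 TPM in the gene tables and 0, 0 and 137 in the kallisto-format tables. Of 12 copies of chromatin genes 6 were higher and none lower. Their most abundant was Gm15387, 1 base away from Hmgb1, at 71.0, 49.9 and 164 TPM and at 70.1, 52.8 and 194. Of 6 copies of enzymes of central metabolism 2 were higher, and Gm7336, a copy of the glycolytic gene Gapdh, was at 103, 53.8 and 13.1 TPM and at 8.88, 3.02 and 0. Of 4 copies of cytoskeletal genes 3 were higher, and Gm12715 led. A list of ferritin, lysosome and macrophage genes matched 2 members, both copies of the fatty acid-binding gene Fabp5 and both higher in the gene table. Gm14328 was at 8.59, 8.03 and 76.0 TPM and at 1.64, 2.96 and 0. The remaining 97 members, 42 of them higher and 1 lower, had other parents or none.

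The 6 members without a parent were not called apart between the tables. Gm12250 was at 20.6, 68.0 and 23.3 TPM in the gene tables and 20.0, 66.9 and 26.2 in the kallisto-format tables, from 386, 1360 and 937 expected counts, and all of its 1244 words were private. Replicate 2 was the high library in both tables. Gm17147 was at 7.53, 15.3 and 3.90 TPM and at 14.4, 34.6 and 10.2, Gm6545 at 2.52, 5.19 and 1.11 and at 2.66, 4.65 and 1.62, and Gm17907 at 1.20, 1.35 and 1.27 and at 1.69, 1.71 and 1.63. Gm12903 was at 1.12, 1.43 and 1.65 TPM and at 1.10, 1.86 and 0.754. Gm18852, whose exons overlap those of Gm4070 on the same strand, was at 1.24, 3.42 and 1.02 and at 0.674, 1.70 and 0.803.

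Members of identical sequence had identical values. Rpl35a-ps2 and its 4 exact copies, Rpl35a-ps3, Rpl35a-ps4, Rpl35a-ps6 and Gm10243, were each at 5.39, 8.70 and 2.16 TPM in the gene tables and 0.0851, 0.222 and 0.0802 in the kallisto-format tables. They are 5 entries of the list but 1 sequence, and their reads cannot be told apart. In all, 9 members fell into 3 such groups. Rpl35a was at 1010, 1120 and 431 TPM in the gene tables.

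The deposited credibility intervals, whose level the files do not state, were set against the kallisto-format values. The kallisto-format TPM lay inside the gene table's interval for 61, 54 and 50 of 247 members in replicates 1, 2 and 3, and in all 3 libraries for 29. It lay below the interval in every library for 132 members and above it for 21. The interval did not always hold the gene table's own TPM. That of Gm10163 was 49.15, 50.29 and 37.83, above upper bounds of 40.03, 40.46 and 37.02 in replicates 1, 2 and 3. A value outside the interval is therefore no measure of distance from the gene-table TPM. Among protein-coding genes it was inside for 15.3%, 16.6% and 58.2%, so a value outside was common there too, beside quartiles of the log2 ratio at 0.18 and 0.34. The lower bound was under 1 TPM in some library for 111 members. The median posterior SD was 9.04% of the expected count in members and 0% in protein-coding genes.

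Some members rested on few counts. In some library 57 members had fewer than 10 expected counts, and 190 had 10 or more in every library. Tma7-ps, 195 bases long and 2 bases away from Tma7, met the rule with 2 expected counts in each library, which gave 7.38, 6.97 and 4.05 TPM. Just inside the threshold stood Gm15361, a copy of the ubiquitin-conjugating enzyme gene Ube2d3, with a lowest library of 1.01 TPM, and Gm18852 with 1.02. Just outside stood Gm13238 with a lowest library of 0.98 TPM and Tsg101-ps, a copy of the ESCRT gene Tsg101, with 0.97.

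Replicates 1 and 2 resembled each other among the members more than either resembled replicate 3. In the gene tables, Pearson's r of log2 levels over the 247 members was 0.93 for replicates 1 and 2, 0.72 for replicates 1 and 3 and 0.69 for replicates 2 and 3. Over protein-coding genes r was 0.92, 0.91 and 0.92. Levels were over 4-fold apart for 4, 55 and 65 members in these pairs, or 1.62%, 22.3% and 26.3%, beside 3.07%, 3.27% and 2.67% of protein-coding genes. These values are over genes within libraries of different depth, replicate 3 having the highest total. The kallisto-format tables gave r of 0.93, 0.68 and 0.68 for the members. There 36, 85 and 95 members were over 4-fold apart, or 14.6%, 34.4% and 38.5%, beside 2.89%, 2.41% and 1.80% of protein-coding genes, with a value of 0 in 1 library of the pair counted as apart. For replicates 1 and 2 the members' share was thus below that of protein-coding genes in the gene tables and above it in the kallisto-format tables. The threshold of 1 TPM applied to the gene tables only, and 100 members were below 1 TPM in every kallisto-format table. Values near 0 differ 4-fold more easily, and their part in this contrast was not tested.

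Replicate 3 was the lowest library for 141 members (57.1%) and for 50.6% of protein-coding genes, and the highest for 65 members. The median coefficient of variation over the 3 libraries was 0.459 for members and 0.294 for protein-coding genes in the gene tables, and 0.643 and 0.280 in the kallisto-format tables. Without replicate 3 the members' median was 0.219.

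**Figure D5:**
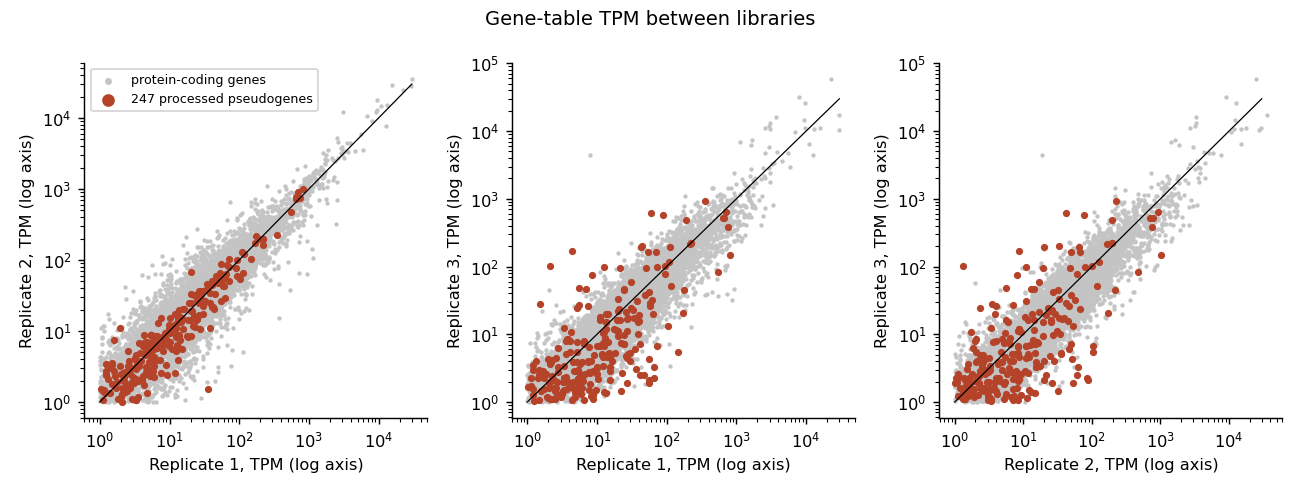
Gene-table TPM in each pair of libraries (both axes logarithmic) for the 247 members (red) and protein-coding genes (grey), with the line of equal values. The members lie close to the line between replicates 1 and 2 (r = 0.93) and spread to both sides of it in the pairs with replicate 3 (r = 0.72 and 0.69).

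The widest spread belonged to members that 1 library set apart. Gm6829, a copy of the palmitoylation adaptor gene Golga7, was at 2.13, 1.32 and 102 TPM in the gene tables and 0, 0 and 71.0 in the kallisto-format tables. Gm10095, a copy of BC004004, was at 4.33, 8.67 and 170 TPM in the gene tables but at 3.39 and 4.42 in replicates 2 and 3 of the kallisto-format tables. BC002163, a copy of the complex I gene Ndufs5, was high in replicate 1, at 36.2, 1.53 and 3.09 TPM and at 21.9, 0.936 and 0.

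The members of narrowest spread in the gene table, chosen for it, varied more in the other table, Gm9392 the least of them. Gm5884, identical to the endosomal gene Tom1, was at 3.39, 3.25 and 3.40 TPM in the gene tables and 0, 1.10 and 21.4 in the kallisto-format tables. Gm15899, identical to the Arp2/3 gene Actr3, was at 94.3, 101 and 102 TPM and at 53.5, 29.8 and 0. Gm9392, a copy of the small GTPase gene Rap1a, was at 2.24, 2.27 and 2.42 TPM and at 0.781, 0.844 and 1.39.

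The kallisto-format tables credited other processed pseudogenes that are not members. There were 59 at 1 TPM or more in all 3, of which 26 had 0 expected counts in every gene table, and 50 of the 59 had a parent. Gm19220 (chr12:40893485-40894287, 803 bases) was at 244, 271 and 202 TPM with 4355, 5146 and 5143 estimated counts and had 0 expected counts, although 768 of its 771 words were private. Gm12895 and Gm12896 on chromosome 4 were both at 157, 278 and 10.6 TPM with 0 expected counts, and each had 2 private words of 196. Gm12481, identical to Serf2, missed the rule in replicate 3, with 166, 233 and 0.67 TPM in the gene tables and 163, 212 and 0 in the kallisto-format tables. Gm9830, identical to Ramac, which encodes an activator of mRNA cap methylation, was at 0, 13.6 and 154 TPM and at 12.7, 27.1 and 125.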

How the data were processed

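Polyadenylated RNA of 3 macrophage libraries was analysed from deposited tables. Per the file headers the gene tables hold RSEM-format values and the kallisto-format tables values per transcript, which were summed per gene. The deposited lists name build mm10 and annotation M21, and say that the first were made from transcriptome alignments and the second directly from reads. No source used here states the aligner, program versions or strand setting. Expected counts and estimated counts were deposited by the authors and need not be whole. TPM were scaled by the authors to a fixed sum per library. The bounds of the TPM credibility interval are a deposited signal per gene, of unstated level.

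The members and the lists were chosen with earlier results of these data known, and the rule for members uses gene-table TPM. Ratios were log2 of TPM plus 0.1. A gene was called apart where its TPM differed over 2-fold in the same direction in all 3 libraries. The 86 genes without a kallisto-format value were left out of ratios. With 1 group of 3 libraries no test was run, and the spread between libraries may be technical, since nothing names separate animals. Parents were the protein-coding transcripts of highest blastn 2.17.0 bit score, on the same strand, with 80% identity over 50% of the member. Ties went to symbols that do not name a pseudogene or an unnamed gene, then to the first by name. Overlaps used bedtools 2.31.1 and were sought only with genes that are not processed pseudogenes. Private words are 31-base words found in no other gene's M21 transcripts. TMM factors of edgeR 4.0.16 on rounded expected counts served 1 alternative. Ratio calls, words and parents were tested on simulated data.

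Named were the 10 members of highest mean TPM, the 5 highest and 5 lowest ratios, the 3 lowest and 3 highest coefficients of variation, the most abundant member of each parent family, the 5 processed pseudogenes of highest kallisto-format TPM that are not members, and 2 genes on either side of the threshold. Other names were chosen after their values were seen, among them Mpc1-ps for its sequence, Snrpert, Rps12-ps3, Tma7-ps, Gm16089, the Rpl35a copies, members above their parent and members without one.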

Additional observations from a re-analysis of the deposited data

How the results depend on the processing

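All alternatives use the same 3 libraries, and the cause was not tested for any difference. Of 77 values under alternatives, 56 stayed within the limits set for no change (1.5 times for counts and coefficients of variation, 1 SD over libraries for ratios and the TPM share), 20 moved further and 1, the ratio for the kallisto-format choice, changed sign. The number of members was 96 at 5 TPM, 945 by posterior mean TPM and 146 when chosen by the kallisto-format table. It ran from 265 to 350 when 1 library was left out. The median log2 ratio of 2.86 became 3.34 with a pseudocount of 0.01 TPM, 1.38 with 1 TPM, 1.61 in CPM, 1.64 for members at 5 TPM and -0.95 for the kallisto-format choice. With kallisto values of 0 set to 3 counts, chosen after seeing the data, it was 2.41. That limit covers sampling of reads and not how shared reads were divided. It ran from 2.40 to 3.02 when 1 library was left out. The 136 members higher in the gene table became 43 at 5 TPM and 7 for the kallisto-format choice, and ran from 144 to 221 without 1 library. The 9 lower became 17 in CPM, 51 for the kallisto-format choice, 16 at 1.5-fold and 1 at 4-fold, and ran from 10 to 20 without 1 library. Dividing the gene-table TPM by the protein-coding median of each library, also chosen after seeing the data, gave 128 higher and 13 lower. The members' share of TPM, 0.964%, was 0.165% of expected counts, and ran from 0.961% to 1.14% without 1 library. The median coefficient of variation, 0.459, was 0.643 in the kallisto-format tables and ran from 0.219 to 0.508 without 1 library. Replicate 3 gave the 350, 221, 20, 1.14% and 0.219 when left out. A parent was found for 204 members at 98% identity over 80% of the length. No paired analysis was possible because there is 1 group.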
